A study of Mus musculus with 13 samples.

Results

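The immediate early genes examined here are 10 genes fixed by name, namely Fos, Fosb, Jun, Junb, Egr1, Nr4a1, Nr4a2, Nr4a3, Atf3 and Ier2, and each symbol was matched to 1 Ensembl identifier among the 42416 identifiers counted in each library. All 10 passed the filter on low counts that left 13360 genes for testing, so none was lost from the set. They were measured by bulk RNA sequencing of interscapular brown adipose tissue (iBAT), the thermogenic fat depot between the shoulder blades, in 13 libraries. Of these, 8 were labelled iFAXLKO (floxed Axl, Cre positive) and 5 were labelled WT, which carried the same floxed Axl without Cre. Both groups were kept at room temperature on a high-fat diet (HFD) with tamoxifen every 3 weeks, and the labels give no age. The study's methods and legends describe female littermates and an Adipoq-CreERT2 line, in which a tamoxifen-inducible Cre is driven from a transgene around the adipocyte gene Adipoq, so that only adipocytes of the depot are targeted. The labels number the libraries as replicates without stating that each is a separate mouse, so the p-values measure the spread between these libraries.

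Immediate early genes are transcribed within minutes of a stimulus without the need for new protein synthesis, by factors such as CREB, SRF with its ETS partners and MEF2 that already sit in the nucleus. Most encode transcription factors, and their mRNAs are short-lived. In brown adipose tissue they are known to respond to adrenergic stimulation through cAMP and protein kinase A, and in many tissues to growth factors and stress.

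Promoter sequence was available for 8 of the 10 genes, as the 250 bases before to 50 bases after the start of transcription in RefSeq (GRCm38.p6). The letters TGACG, a short form of the cAMP response element (CRE) that CREB family proteins recognise, were present on either strand in 7 of these 8 windows, compared with 20.8% of 32851 windows of the same length. Jun was the only one of the 8 without it. The bases before the start are shown for Fos, Fosb, Jun, Nr4a1 and Nr4a2, since Fos and Fosb varied most between libraries, Jun had the highest level per base of transcript, and Nr4a1 and Nr4a2 each held 4 short CRE sites, with every match in capitals (TGACG or, for the other strand, CGTCA).
Fos promoter: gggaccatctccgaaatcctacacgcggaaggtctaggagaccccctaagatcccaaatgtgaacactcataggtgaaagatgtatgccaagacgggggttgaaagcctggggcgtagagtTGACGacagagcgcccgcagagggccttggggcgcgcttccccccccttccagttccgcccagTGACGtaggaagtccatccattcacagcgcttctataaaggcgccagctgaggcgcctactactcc
Fosb promoter: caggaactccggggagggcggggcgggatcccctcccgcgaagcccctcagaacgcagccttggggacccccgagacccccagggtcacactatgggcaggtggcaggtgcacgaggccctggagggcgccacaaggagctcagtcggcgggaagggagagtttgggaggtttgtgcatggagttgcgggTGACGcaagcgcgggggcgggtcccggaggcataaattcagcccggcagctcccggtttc
Jun promoter: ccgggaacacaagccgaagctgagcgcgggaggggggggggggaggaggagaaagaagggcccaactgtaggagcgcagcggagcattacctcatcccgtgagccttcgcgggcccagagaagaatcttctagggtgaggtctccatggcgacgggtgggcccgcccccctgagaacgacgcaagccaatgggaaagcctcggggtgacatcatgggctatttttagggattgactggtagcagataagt
Nr4a1 promoter: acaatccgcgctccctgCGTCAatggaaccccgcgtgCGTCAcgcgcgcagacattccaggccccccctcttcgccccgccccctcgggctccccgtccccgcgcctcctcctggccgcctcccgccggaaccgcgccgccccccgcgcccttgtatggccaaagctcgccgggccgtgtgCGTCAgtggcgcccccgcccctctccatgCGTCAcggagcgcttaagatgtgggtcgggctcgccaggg
Nr4a2 promoter: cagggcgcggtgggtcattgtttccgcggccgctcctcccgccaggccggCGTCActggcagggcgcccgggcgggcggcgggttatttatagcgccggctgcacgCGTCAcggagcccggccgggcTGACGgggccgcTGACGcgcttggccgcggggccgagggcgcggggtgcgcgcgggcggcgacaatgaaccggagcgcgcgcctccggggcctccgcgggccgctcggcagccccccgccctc
These stretches lie at chr12:85473640-85473889 on the plus strand for Fos, at chr7:19310046-19310295 on the minus strand for Fosb, at chr4:95052223-95052472 on the minus strand for Jun, at chr15:101266596-101266845 on the plus strand for Nr4a1 and at chr2:57124004-57124253 on the minus strand for Nr4a2. The genes themselves are annotated in GENCODE M21 (GRCm38), Fos (ENSMUSG00000021250) at chr12:85473890-85477273, Fosb (ENSMUSG00000003545) at chr7:19302696-19310051, Jun (ENSMUSG00000052684) at chr4:95049034-95052222, Nr4a1 (ENSMUSG00000023034) at chr15:101254269-101274795 and Nr4a2 (ENSMUSG00000026826) at chr2:57106830-57124003. The stretch of Nr4a1 lies inside its annotated gene, which has an earlier start. That of Fosb also reaches a few bases into its annotated gene. The Fos matches began at -129 and -66 and that of Fosb at -60, counted from -1 for the last base before the start. In Nr4a1 the matches began at -233, -213, -69 and -40 and in Nr4a2 at -200, -144, -123 and -111. Nr4a3 also held 4 matches, whereas Junb held 1 at -106 and Atf3 held 1 at -7. The full CRE (TGACGTCA, found in 1.79% of all windows), the AP-1 site (TGANTCA, 7.81%) and the CArG box bound by SRF (1.63%) had no match in the 8 windows. Variants of these letters and sites farther than 250 bases before the start were not searched. Egr1 and Ier2 had no window and were not searched at all. TATAAA, the core of a TATA box, was present in 3 of them (Fos, Junb and Nr4a2) compared with 13.6% of all windows. It began at -33 in Fos, at the start base itself in Junb and, on the other strand, at -164 in Nr4a2. The ETS core CCGGAA was present in 1 of the 8 windows (Nr4a1) compared with 14.9% of all windows. Such matches describe letters in a window and not occupied sites.

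Library depth ranged from 22437277 to 32595083 counts, with 18.3% to 21.3% of counts on mitochondrially encoded genes, and brown adipocyte markers summed to between 15727 and 26351 CPM (counts per M counts of the library, after scaling) with none of the 12 at 0. Axl, which the Cre line targets, was no lower in iFAXLKO than in WT. It was at 33.1 ± 6.16 CPM in iFAXLKO (SD, n = 8) and at 27.8 ± 3.82 CPM in WT (SD, n = 5), a log2 fold change of 0.25 with a standard error (SE) of 0.13 (edgeR adjusted p = 0.699), and 6 of the 8 were above the WT mean. Directions below therefore refer to the labels, and iFAXLKO stands for the libraries labelled so. Across all genes tested 17 passed an adjusted p under 0.05 (13 higher and 4 lower in iFAXLKO).

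To address whether the immediate early genes differed between libraries labelled iFAXLKO and WT, their levels were compared gene by gene. None of the 10 was called, beside 0.127% of all genes tested (0.0973% higher and 0.0299% lower). None had an unadjusted p under 0.05 either, beside 7.38% of all genes, and none had groups whose ranges did not overlap, beside 0.434%. The estimates were higher for 3 members and lower for 7 in iFAXLKO, with a median log2 fold change of -0.22 compared with -0.01 over all genes tested. Adjusted p-values ran from 0.872 to 0.988 (edgeR quasi-likelihood test), and exact permutation tests, 2-sided, ran from 0.285 to 0.752. In bulk tissue, fewer cells of a type and less RNA per cell cannot be told apart. What did vary was the level from library to library within each group, as described for each gene below and shown in the plot of CPM by library.

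**Figure D1:**
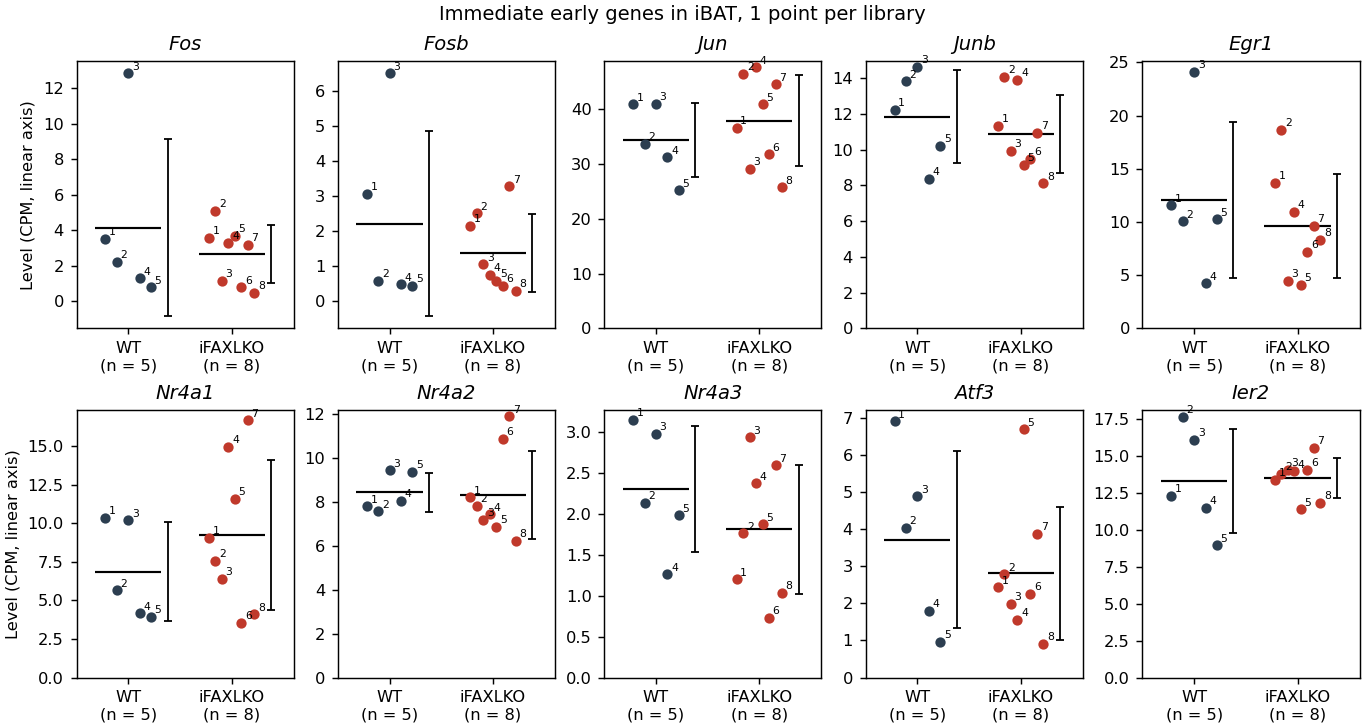
Level of each of the 10 immediate early genes in CPM (linear axis) in the 5 WT and 8 iFAXLKO libraries, 1 point per library with its replicate number, the group mean as a line and the SD as a bar. The groups overlap for every gene, and WT replicate 3 stands above the other WT libraries for Fos (12.9 CPM), Fosb (6.50 CPM) and Egr1 (24.1 CPM).

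Fos encodes the founding member of the FOS family, which pairs with JUN proteins to form the transcription factor AP-1. It was at 3.54, 2.22, 12.9, 1.30 and 0.801 CPM in WT replicates 1 to 5. The 8 iFAXLKO libraries ranged from 0.478 CPM, with a median of 3.25, to 5.09 CPM. A single WT library was therefore the highest of all, and the iFAXLKO levels spanned those of the other WT libraries. The means were 2.67 ± 1.65 CPM in iFAXLKO and 4.14 ± 4.98 CPM in WT, although the median was the higher of the pair in iFAXLKO (3.25 compared with 2.22 CPM). The log2 fold change was -0.65 with a 95% interval of -2.11 to 0.82 (edgeR adjusted p = 0.897). The lowest library, iFAXLKO replicate 8, rested on 12 counts with an exact Poisson interval of 0.247 to 0.834 CPM, and the highest, WT replicate 3, on 437 counts with an interval of 11.7 to 14.1 CPM, so that the 26.9-fold range was wider than counting error.

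Fosb, the paralog of Fos, was the member with the lowest level per base of transcript. It was at 3.04, 0.565, 6.50, 0.458 and 0.422 CPM in WT replicates 1 to 5 and ranged from 0.279 CPM, with a median of 0.882, to 3.27 CPM in iFAXLKO. In both groups most libraries were at 1.04 CPM or below and a few were above 2 CPM, namely WT replicates 1 and 3 and iFAXLKO replicates 1, 2 and 7. This gave a log2 fold change of -0.71 with a 95% interval of -2.33 to 0.90 (edgeR adjusted p = 0.897). At 7 counts in the lowest library and 221 in the highest, Fosb varied 23.3-fold.

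Jun encodes the main JUN partner in AP-1 and had the highest level per base of transcript. It was at 40.9, 33.6, 41.0, 31.2 and 25.2 CPM in WT replicates 1 to 5 and ranged from 25.8 CPM, with a median of 38.8, to 47.6 CPM in iFAXLKO. Although 3 iFAXLKO libraries were above every WT library, the lowest libraries of both groups were at almost the same level. For Jun the log2 fold change was 0.14 with a 95% interval of -0.20 to 0.48 (edgeR adjusted p = 0.907). Jun overlaps the antisense gene Junos, which was at 0.820 to 1.52 CPM.

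Junb, which encodes a JUN family member that also restrains c-Jun activity, was at 12.2, 13.8, 14.6, 8.37 and 10.2 CPM in WT replicates 1 to 5. In iFAXLKO it ranged from 8.12 CPM, with a median of 10.4, to 14.1 CPM, so that the WT and iFAXLKO ranges nearly coincided. Between the groups Junb had a log2 fold change of -0.12 with a 95% interval of -0.45 to 0.20 (edgeR adjusted p = 0.918). Junb overlaps Prdx2 on the opposite strand, a far more abundant gene at 135 to 230 CPM, and since the strand setting of the counting is not given in the sources used here, the share of Junb counts that came from Prdx2 was not tested.

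Egr1 encodes a zinc finger transcription factor induced through SRF and the ERK pathway. It was at 11.6, 10.1, 24.1, 4.24 and 10.2 CPM in WT replicates 1 to 5, and in iFAXLKO it ranged from 4.08 CPM, with a median of 9.01, to 18.7 CPM. Again WT replicate 3 was the highest library, whereas the lowest was an iFAXLKO library. Egr1 had a log2 fold change of -0.32 with a 95% interval of -1.23 to 0.58 (edgeR adjusted p = 0.922).

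The NR4A genes encode orphan nuclear receptors that are induced by cAMP in adipocytes. Nr4a1 (Nur77) was at 10.4, 5.65, 10.2, 4.16 and 3.92 CPM in WT replicates 1 to 5 and ranged from 3.55 CPM, with a median of 8.32, to 16.7 CPM in iFAXLKO. Of the iFAXLKO libraries 3 were above every WT library and 1 was below every WT library. Its log2 fold change of 0.42, with a 95% interval of -0.44 to 1.29, was the most positive among the members (edgeR adjusted p = 0.880). Nr4a2 (Nurr1) was at 7.79, 7.56, 9.41, 8.02 and 9.36 CPM in WT replicates 1 to 5 and ranged from 6.21 CPM, with a median of 7.61, to 11.9 CPM in iFAXLKO. The iFAXLKO libraries lay on both sides of the narrow WT range, 2 above and 4 below it, and the log2 fold change was -0.02 with a 95% interval of -0.34 to 0.29 (edgeR adjusted p = 0.988).

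Nr4a3 (NOR1) was at 3.14, 2.13, 2.97, 1.26 and 1.98 CPM in WT replicates 1 to 5 and ranged from 0.726 CPM, with a median of 1.81, to 2.93 CPM in iFAXLKO. No iFAXLKO library exceeded the WT maximum and 3 were below the WT minimum. The log2 fold change was -0.35 with a 95% interval of -1.004 to 0.305 (edgeR adjusted p = 0.872), and the exact permutation test gave p = 0.285, the lowest of the 10 genes by either test.

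Atf3 encodes a stress-inducible ATF/CREB family factor that mostly represses transcription. It was at 6.91, 4.04, 4.88, 1.80 and 0.970 CPM in WT replicates 1 to 5 and ranged from 0.916 CPM, with a median of 2.34, to 6.69 CPM in iFAXLKO. Of the 8 iFAXLKO libraries 6 were below 3 CPM, and replicate 5 was the highest of this group. Atf3 had a log2 fold change of -0.41 with a 95% interval of -1.43 to 0.61 (edgeR adjusted p = 0.907).

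Ier2, which encodes a small nuclear protein induced by growth factors, was the member with the lowest within-group SD of log2 CPM. It was at 12.3, 17.6, 16.1, 11.5 and 8.94 CPM in WT replicates 1 to 5, and in iFAXLKO it ranged from 11.4 CPM, with a median of 13.9, to 15.6 CPM, inside the WT range. The log2 fold change was 0.02 with a 95% interval of -0.27 to 0.31 (edgeR adjusted p = 0.988). For 4 members (Jun, Junb, Nr4a2 and Ier2) the interval of the group difference lay within 2-fold in either direction, whereas for the other 6 a difference of 2-fold was still inside it.

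**Figure D2:**
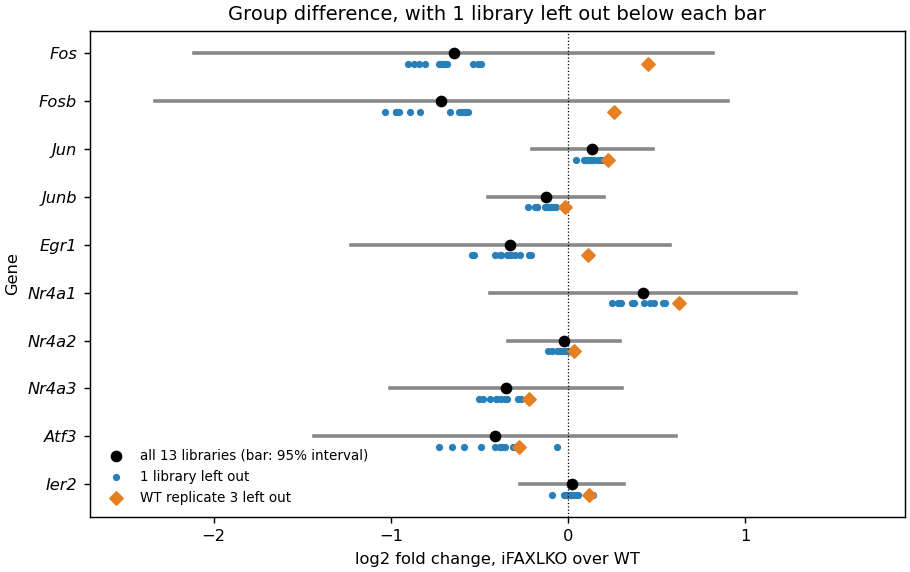
log2 fold change of each immediate early gene, iFAXLKO over WT, with all 13 libraries (black point, with the 95% interval as a bar) and with 1 library left out at a time (small points, WT replicate 3 as a diamond). Every bar crosses 0, and without WT replicate 3 the estimate moves from -0.65 to 0.45 for Fos and from -0.71 to 0.26 for Fosb.

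The direction of several estimates rested on WT replicate 3. Without this library, the log2 fold change of Fos was 0.45 (edgeR adjusted p = 0.912), that of Fosb 0.26 (0.974), that of Egr1 0.11 (0.982) and that of Nr4a2 0.03 (0.987), all with the sign turned. The median over the 10 members then moved from -0.22 to 0.12. Jun, Junb, Nr4a1, Nr4a3 and Atf3 each kept their sign whichever single library was left out, but not their size. Atf3 was at -0.065 without WT replicate 1 and at -0.73 without iFAXLKO replicate 5. Junb was at -0.018 without WT replicate 3 and at -0.23 without WT replicate 4, and Jun at 0.045 without WT replicate 5 and at 0.23 without WT replicate 3. Nr4a1 ranged from 0.25 without iFAXLKO replicate 7 to 0.63 without WT replicate 3, and Nr4a3 from -0.50 without WT replicate 4 to -0.21 without WT replicate 1. Nr4a2 and Ier2, whose estimates were near 0, turned sign in 6 and 4 of the 13 fits without 1 library. No member was called in any of these fits.

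Per kilobase of exon, which allows levels to be compared between genes, the order was Jun (mean RPKM over 13 libraries 11.5), Ier2 (8.81), Junb (4.88), Nr4a1 (2.37), Egr1 (2.36), Nr4a2 (2.06), Atf3 (1.47), Fos (1.37), Nr4a3 (0.334) and Fosb (0.270). Jun was above Ier2 in 11 of 13 libraries, Ier2 above Junb in 13, Junb above Nr4a1 in 12 and Fos above Nr4a3 in 13, and in these neighbouring pairs the mean log2 difference exceeded its SD over libraries. The remaining neighbours (Nr4a1, Egr1 and Nr4a2 among themselves, Nr4a2 and Atf3, Atf3 and Fos, Nr4a3 and Fosb) did not differ beyond that spread. Among the 13360 genes tested, Jun was at the 76.6th percentile of level and Fosb at the 3.22nd.

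The members fell into a more variable and a less variable set. Between the lowest and highest library, levels varied 26.9-fold for Fos, 23.3-fold for Fosb, 7.54-fold for Atf3, 5.92-fold for Egr1, 4.70-fold for Nr4a1 and 4.33-fold for Nr4a3. They varied by only 1.80-fold to 1.97-fold for Junb, Jun, Nr4a2 and Ier2. The within-group SD of log2 CPM was 1.40 for Fosb, 1.31 for Fos and 0.94 for Atf3, against a median of 0.21 over all genes tested. These values placed Fosb at the 99.0th, Fos at the 98.9th and Atf3 at the 98.3rd percentile. Egr1 was at the 97.7th, Nr4a1 at the 97.5th and Nr4a3 at the 96.0th. Jun was at the 77.7th, Junb at the 74.1st, Nr4a2 at the 68.9th and Ier2 lowest at the 66.5th. Every member thus varied more than the median gene. Fosb, Nr4a3, Fos and Atf3 were also the 4 members with the lowest mean CPM. The exact Poisson intervals of the lowest and highest library did not overlap for Fosb (0.112 to 0.574 and 5.67 to 7.42 CPM), as for Fos, nor for Nr4a3 (0.437 to 1.13 and 2.55 to 3.84 CPM), and were not computed for Atf3.

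**Figure D3:**
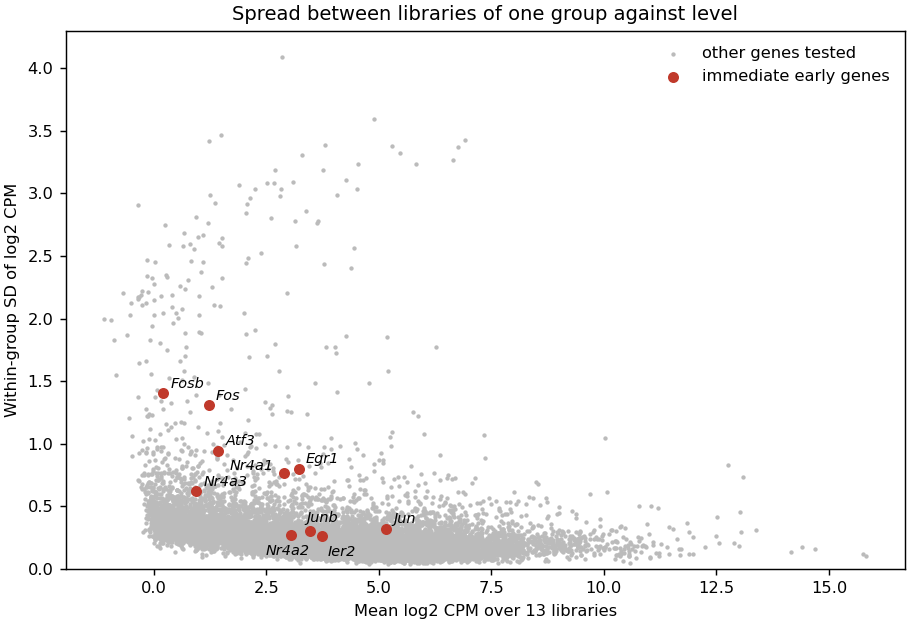
Within-group SD of log2 CPM (vertical axis) against mean log2 CPM over 13 libraries (horizontal axis) for all 13360 genes tested, with the 10 immediate early genes in red. Fosb (SD 1.40) and Fos (1.31) lie above the dense band of genes, whereas Jun, Junb, Nr4a2 and Ier2 lie inside it.

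The same libraries tended to be high or low for several members. WT replicate 3 was the highest of the 13 libraries for 4 members (Fos, Fosb, Junb and Egr1), in the top 3 for 8 and above the median for all 10. iFAXLKO replicate 8 was the lowest for 5 members (Fos, Fosb, Junb, Nr4a2 and Atf3) and in the bottom 3 for 8. iFAXLKO replicate 7 was the highest for Nr4a1 and Nr4a2, and WT replicates 4 and 5 were low, so that libraries of both labels stood at both ends. Averaged over the 10 members, log2 CPM was 0.94 above the mean of all libraries in WT replicate 3 and 0.85 below it in iFAXLKO replicate 8.

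**Figure D4:**
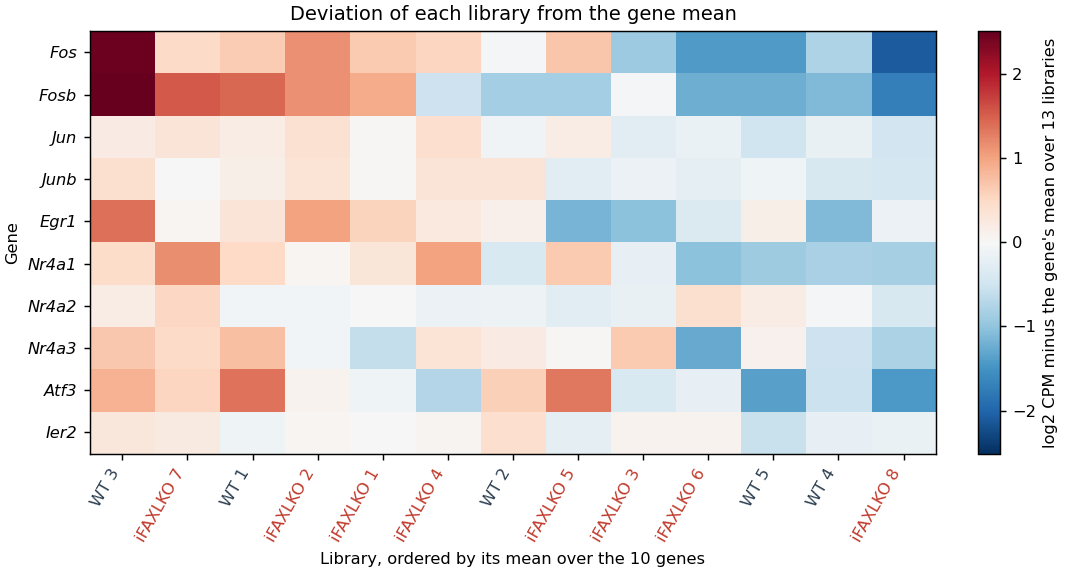
log2 CPM of each gene minus its mean over 13 libraries (colour scale), with genes in rows and libraries in columns, ordered by their mean over the 10 genes from WT replicate 3 (0.94) on the left to iFAXLKO replicate 8 (-0.85) on the right. WT and iFAXLKO libraries are mixed along the order.

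To describe this shared variation, the 45 pairs of members were correlated across the 13 libraries after subtracting the group means. Pearson's r was positive for 44 pairs with a median of 0.52, and 12 pairs had an adjusted p under 0.05 over the 45 pairs (100000 permutations, 2-sided). The same was not computed for pairs of other genes, so these counts are not shown to be particular to the members. The closest pair was Fos and Jun, the partners in AP-1, with r = 0.88 (permutation p = 9.0e-05, adjusted 0.00405) and a Spearman rho of 0.83 (by permutation, p = 0.00084, or 0.0214 after adjustment), and r = 0.80 when the 2 libraries most distant from the median Fos level were left out. Jun and Nr4a1 followed with r = 0.85 (permutation p = 0.00047, adjusted 0.00866) and a Spearman rho of 0.82 (by permutation, p = 0.00106, or 0.0214 after adjustment), and Fos and Fosb with r = 0.83 (permutation p = 0.00077, adjusted 0.00866) and a Spearman rho of 0.79 (by permutation, p = 0.00223, or 0.0214 after adjustment). Without the 2 libraries farthest from the median these were r = 0.80 and r = 0.76. Junb and Egr1 were at r = 0.77 (permutation p = 0.00235, adjusted 0.0211) and a Spearman rho of 0.79 (by permutation, p = 0.00238, or 0.0214 after adjustment), with r = 0.78 without 2 libraries. Nr4a2 had the lowest median r with the other members, 0.13. Neither Nr4a2 nor Ier2 (median r of 0.46) had a pair past the limit. The lowest r of Nr4a2 was -0.05, with its paralog Nr4a3. In contrast, Nr4a1 and Nr4a3 were at r = 0.76 (permutation p = 0.00303, adjusted 0.0227) and a Spearman rho of 0.74 (by permutation, p = 0.00571, or 0.0309 after adjustment), with r = 0.63 without 2 libraries.

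**Figure D5:**
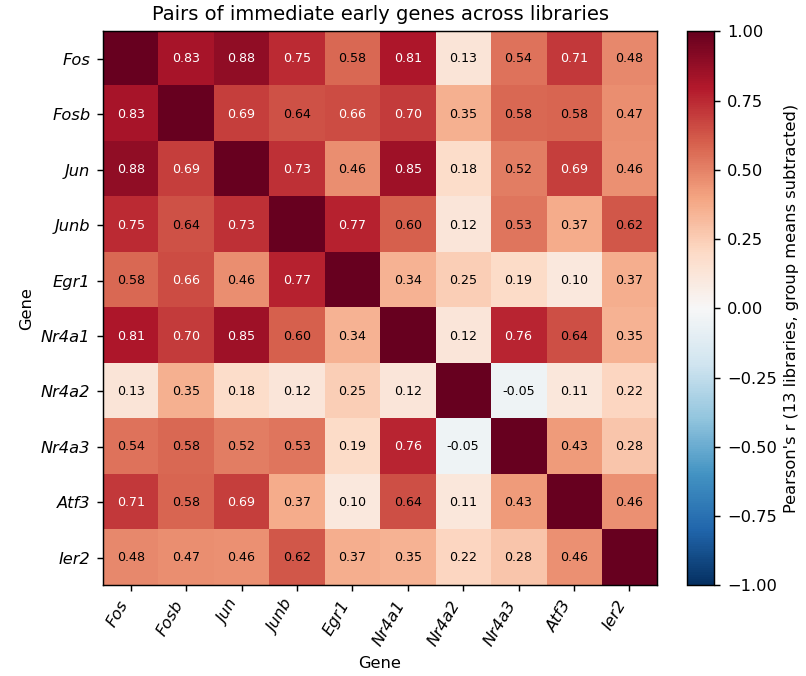
Pearson's r of log2 CPM between each pair of immediate early genes over 13 libraries with group means subtracted (colour scale and printed values). Fos, Fosb, Jun, Junb and Nr4a1 form the block of high values, with r = 0.88 for Fos and Jun, and the Nr4a2 row is pale throughout.

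The labels also carry a library number, of which they say no more, and the libraries were divided by it into a lower range (4 iFAXLKO and 2 WT libraries) and an upper range (4 iFAXLKO and 3 WT libraries). The division is one of several possible, since steps as large as that between the ranges also occur inside the upper range. With group means taken within each range, the median r of the 45 pairs was 0.20 in the lower range, where 27 pairs were positive. It was 0.69 in the upper range, where 45 were. The values for single pairs below kept the group means of all 13 libraries, so they do not enter those medians. Fos and Jun were correlated within both ranges (r = 0.82 over 6 libraries and r = 0.93 over 7). In contrast, Nr4a1 and Nr4a3 were at r = 0.16 in the lower and 0.94 in the upper range, and Fos and Atf3 at 0.09 and 0.83. Levels were higher in the lower range for 8 members in iFAXLKO and for 9 in WT, with Nr4a2 the exception in both and Atf3 in iFAXLKO. Some of these shifts in log2 CPM were small (0.07 for Ier2 in iFAXLKO and 0.09 for Egr1 in WT). The share over all genes tested was not computed, so the counts are not shown to be particular to the members. The iFAXLKO minus WT difference in mean log2 CPM changed sign between the ranges for Fos (0.05 and -0.68), Fosb (0.09 and -0.62), Atf3 (-1.28 and 0.39) and Ier2 (-0.09 and 0.15), and kept its sign for the other 6.

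Beyond the 10 members, a list of 44 other primary response genes was followed, of which 37 passed the filter and 1, Egr4, was at 0 in every library. None was called. The median log2 fold change was 0.10, with 25 estimates higher and 12 lower in iFAXLKO, and -0.22 for the 10 members. Without WT replicate 3 these medians were 0.25 and 0.12, and with a fibroblast score in the model -0.04 and -0.63. Nfkbia, the inhibitor of NF-κB, had an estimate of 0.38 (33.3 ± 8.17 CPM in iFAXLKO, n = 8, and 25.6 ± 3.51 in WT, n = 5, edgeR adjusted p = 0.619). Cebpd, an early adipogenic factor, had 0.63 (adjusted p = 0.647), and Klf6, a Krüppel-like factor, had 0.27 (adjusted p = 0.647). These were the 3 genes of the 37 tested with an unadjusted p under 0.05, beside 7.38% of all genes tested. Rhob, which encodes a small GTPase, had an estimate of 0.37 and Gadd45a, a growth arrest gene, one of -0.42.

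The mean standardised level of the 10 members and the mean log2 CPM of the 37 other primary response genes moved together across the libraries. After subtracting the group means r was 0.82 and rho 0.77, and r was 0.67 without the 2 libraries farthest from the median. Within the ranges of library numbers r was -0.23 in the lower and 0.94 in the upper. Egr3, a relative of Egr1, and Ccn1, a matricellular protein gene of the same list, were among the 8 genes outside the members whose level followed their mean most closely (r = 0.77 for both over 13 libraries). The others were Nop9 (0.81), Gm49339 (0.80), Hmga1 (0.79), Trim27 (0.79), Retreg1 (0.78) and Apbb1ip (0.76), picked as the highest of all genes tested.

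Of 12 genes that respond to cAMP in brown adipocytes, 11 passed the filter and none was called. Per1, a clock gene with cAMP-responsive promoter elements, had the smallest p, with 63.3 ± 27.5 CPM in iFAXLKO and 35.7 ± 8.96 CPM in WT, a log2 fold change of 0.83 (edgeR adjusted p = 0.554). Ucp1, the uncoupling protein, was at 5599 ± 1121 and 6367 ± 914 CPM with a log2 fold change of -0.19 (adjusted p = 0.835). The list median was -0.03. The 26 kinases and transcription factors upstream of immediate early genes all passed the filter, with none called and a median of -0.04, and Srf, which encodes the factor that binds CArG boxes, had the smallest p with a log2 fold change of -0.14 (adjusted p = 0.709). Among 9 tested of 12 partners and corepressors, none was called, and Nab1, a corepressor of EGR1, had a log2 fold change of -0.24 (adjusted p = 0.664) whereas its paralog Nab2 had 0.23 (adjusted p = 0.734).

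Heat shock genes, another group that responds quickly to stress, were set beside the members. All 9 passed the filter and none was called, with a median log2 fold change of -0.18. An unadjusted p under 0.05 was found for 3 of the 9, beside 7.38% of all genes tested. These were Hsp90aa1 (-0.61), Hspa8 (-0.39) and Hsph1 (-0.84), which encode chaperones of the cytosol (edgeR adjusted p = 0.462, 0.554 and 0.621). The mean log2 CPM of the 9 heat shock genes had r = 0.38 with the mean standardised level of the members. In the lower range of library numbers r was -0.39 and in the upper range 0.48.

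Markers of other cell types differed between libraries beside the members. The 12 skeletal muscle markers summed to between 3.22 and 5452 CPM in iFAXLKO and between 22.3 and 3854 CPM in WT, and iFAXLKO replicate 8, the library lowest for 5 members, was also the one with the lowest muscle sum. The mean log2 CPM of the muscle markers had r = 0.57 with the mean standardised level of the members. This r was 0.06 without the 2 libraries farthest from the median. The 10 fibroblast markers summed to 564 to 1239 CPM in iFAXLKO and 406 to 721 CPM in WT, all 10 with an unadjusted p under 0.05 and none called, and their r with the members was 0.50, or 0.31 without 2 libraries. The 8 macrophage markers summed to 132 to 264 CPM and 112 to 162 CPM (r = 0.52, or 0.36 without 2 libraries), and 7 of them had an unadjusted p under 0.05. Of all genes tested, 7.38% had an unadjusted p under 0.05. For the 10 endothelial markers (899 to 1396 CPM and 818 to 1118 CPM) r was 0.10 (-0.14 without 2 libraries) and for the 5 erythroid markers (386 to 685 CPM and 285 to 709 CPM) it was 0.46 (0.53). The 12 brown adipocyte markers had r = -0.25, which was -0.0084 without 2 libraries, and -0.74 in the lower and 0.03 in the upper range of library numbers. The 4 white adipocyte markers (53.0 to 122 CPM and 23.3 to 132 CPM) had r = -0.31, which was -0.15 without 2 libraries, and 0.24 in the lower and -0.83 in the upper range. For the 8 mural markers (671 to 848 CPM and 537 to 813 CPM) r was 0.17 (0.24 without 2 libraries) and for 5 of 6 Schwann cell markers 0.32 (0.37), with sums of 73.7 to 94.3 CPM and 71.5 to 95.5 CPM over all 6. The 8 lymphocyte markers summed to 2.18 to 8.33 CPM and 1.52 to 24.4 CPM, and none passed the filter. The part of these cells in the levels of the members was not tested by any of these values. When a fibroblast score was added to the model, the estimates of all 10 members were negative, with a median of -0.63 and no member called (adjusted p of 1.00 for each). Fos moved from -0.65 to -1.98, Fosb from -0.71 to -1.89, Atf3 from -0.41 to -0.99, Nr4a3 from -0.35 to -0.76, Egr1 from -0.32 to -0.69 and Junb from -0.12 to -0.41. Jun, Nr4a1 and Ier2 turned from positive to -0.36, -0.56 and -0.13, and Nr4a2 moved from -0.02 to -0.10. The SE also rose, from 0.67 to 1.14 for Fos, from 0.75 to 1.28 for Fosb and from 0.16 to 0.18 for Jun. All 10 fibroblast markers were higher in iFAXLKO, so this model cannot fully separate the score from the labels. A skeletal muscle score in its place moved the median toward 0, to -0.12, with 3 estimates positive, 7 negative and no member called. Fos was then at -0.42 (SE 0.56), Fosb at -0.47 (SE 0.66) and Atf3 at -0.16 (SE 0.27), whereas Nr4a1 rose to 0.54 (SE 0.37).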

How the data were processed

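Bulk RNA sequencing of iBAT gave 13 libraries, grouped by the labels as 8 iFAXLKO and 5 WT. The authors deposited raw counts per Ensembl gene identifier, 1 file per library. The submitters' processing notes name bcl2fastq 2.20, fastp 0.20.0, STAR 2.7.4a, DESeq2 and GRCm38.p6, whereas the study's methods name Trim Galore, hisat2 and GRCm38, and neither names the counting tool or its strand setting. The methods also state depletion of ribosomal RNA where the labels state polyadenylated RNA. Which applies to these files could not be settled from the counts. Unstranded counting could change the counts of overlapping genes, as named for Jun and Junb, in a direction that depends on the counting tool.

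Total counts were 22437277 to 32595083 per library, so that the limit a count of 0 allows (3 counts) lay between 0.0920 and 0.134 CPM. Intervals and floors cover counting error only. Pairs of libraries within a group differed by a chi-square of at least 15.3 per degree of freedom over genes, and each was counted as 1 replicate. Genes over 1 CPM in at least 5 libraries (13360) were tested with edgeR 4.0.16 (TMM factors, quasi-likelihood F test with robust dispersion, 2-sided, R 4.3.3), with Benjamini-Hochberg adjustment over all genes tested and a limit of 0.05. The SE is the size of the log2 fold change over the square root of F. CPM carry TMM factors, log2 CPM used a prior count of 2, and RPKM divide CPM by the GENCODE M21 exon length. Single members were also tested by exact permutation over all 1287 splits into 8 and 5 (smallest possible p 0.000777). Correlations used log2 CPM with group means subtracted and 100000 permutations. The fitting steps were tried on counts simulated with known changes from the means and dispersions of these data. Such a trial cannot show that the model suits these libraries. Alternatives were DESeq2 1.42.0, limma 3.58.1, sva 3.50.0, other scalings, filters, covariates, the replicate block and leaving out each library.

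The members and gene lists were chosen with earlier results of these data known. Named genes were all members, Axl, up to 5 genes with the smallest p per list, and the 8 genes most correlated with the mean of the members. List symbols that had changed were matched by RefSeq synonyms. Promoter windows and letters came from RefSeq (GRCm38.p6), and both strands were searched for the full CRE (TGACGTCA), for the short form TGACG that lies inside it, for the AP-1 site (TGANTCA), for the ETS core (CCGGAA), for the TATA box (TATAAA) and for the CArG box.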

Additional observations from a re-analysis of the deposited data

Results flagged for a closer look

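Of the 20 sets of values tested, 1 per member and group, 1 held a library far from the others. Fos in WT replicate 3 was at 12.9 CPM, whereas the next WT library was at 3.54 CPM. The gap made up 0.773 of the range of the 5 WT libraries, above the critical value of 0.71 for 5 samples. Chance alone flags about 1 in 20 such groups if the values are normally distributed, which was not tested. The gap was taken in CPM and not in log2 CPM, where WT replicate 3 was at 3.69 and the next WT library at 1.85. WT replicate 3 was also the highest for Fosb, Junb and Egr1 among all 13 libraries.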

How the results depend on the processing

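No member was called in any of the 270 fits of a member under another setting, with a lowest adjusted p of 0.632, and 20 of these turned the sign of an estimate. The cause of these changes was not tested. Over all genes, 17 calls became 67 (38 higher and 29 lower) with DESeq2 and 8 (8 higher) with a fibroblast score as covariate, and 14 to 19 when 1 library was left out. A pairing of the libraries by replicate number was not shown. Same-numbered libraries had correlations of 0.39, 0.42, 0.19, 0.18 and -0.61, and 2 of 5 correlated best with their own number. Such correlations over 5 pairs cannot exclude a pairing. With the numbers as a replicate block, 7 genes were called (7 higher) and the log2 fold change of Fos was 0.38. Nr4a2 turned to 0.0028 with upper quartile factors and to 0.018 with an endothelial score, and Junb to 0.0051 with limma-voom and sample quality weights. With a fibroblast score, all 10 members were negative, with Fos at -1.98 (SE 1.14), Fosb at -1.89 (SE 1.28), Jun at -0.36, Nr4a1 at -0.56 and Ier2 at -0.13. The median over the members was -0.63 with that score, -0.12 with a skeletal muscle score and -0.22 with an endothelial score. Leaving out 1 library gave ranges of -0.12 to 0.035 for Nr4a2, -0.090 to 0.14 for Ier2, -0.91 to 0.45 for Fos, -1.03 to 0.26 for Fosb, -0.54 to 0.11 for Egr1 and -0.73 to -0.065 for Atf3. The median over the members ranged from -0.36 to 0.12 without 1 library and from -0.63 to -0.07 otherwise, and that of the other primary response genes from 0.03 to 0.25 and from -0.04 to 0.14. The median r between members was 0.40 to 0.58 without 1 library, 0.20 within the lower and 0.69 within the upper range of library numbers. Without both WT replicate 3 and iFAXLKO replicate 8 it was 0.40, and this choice and the values of r without 1 library were added after seeing the data. Fosb rested on 7 and Fos on 12 counts in their lowest library.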
